A study of Mus musculus with 661 samples.

Results

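The genes described here are 10 that mark the path from a mesenchymal progenitor to a mineralizing osteoblast and an osteocyte. In the rough early-to-late order used here they are *Runx2*, *Sp7*, *Alpl*, *Ibsp*, *Spp1*, *Bglap*, *Bglap2*, *Dmp1*, *Phex* and *Ifitm5*. They were chosen by symbol for their known roles, and all 10 were found among the 45808 genes of the count table. Single stromal cells had been sorted into wells and sequenced by a plate-based protocol derived from Smart-Seq2, which reads along the whole transcript and here carried no molecular identifiers. The cells came from wild type C57BL/6 mice, young at about 2 months and old at about 24 months of age. The sort gates gave 354 mesenchymal and 307 endothelial cells. The labels tie no cell to a mouse, so each sorted population at each age is 1 sample and no difference between ages could be tested.

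The mesenchymal gates were negative for Ter119, CD45 and CD31. MSC-S were Sca-1+ and CD51+ cells of the endosteum (59 young and 59 old cells). Endosteal cells that were Sca-1-, CD51+ and LepR- were divided by PDGFRα into PDGFRα+ multipotent osteoprogenitors, mOPr (26 young and 26 old cells), and PDGFRα- osteoprogenitors, OPr (44 young and 29 old cells). MSC-L were Sca-1-, CD51+, PDGFRα+ and LepR+ cells of the central marrow (53 young and 58 old cells). The endothelial populations, from endosteum (AEC, 84 young and 82 old cells) and marrow (SEC, 70 young and 71 old cells), serve here as cells that should lack most of these genes. The study had also placed every mesenchymal cell in 1 of 16 clusters by iterative clustering and guide-gene selection (ICGS), which it read as resembling MSC-L (M1, M2), OPr (M3, M4, M5) or MSC-S (the other 11).

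Bone formation begins when the transcription factor *Runx2* commits mesenchymal cells to the osteoblast lineage and *Sp7*, which acts after it, carries them on. The committed cell then makes alkaline phosphatase, which frees phosphate for mineral, and acidic matrix proteins such as bone sialoprotein and osteopontin, and the mature osteoblast adds osteocalcin. Cells that become buried in the matrix turn into osteocytes, which make proteins that govern local mineralization and the phosphate balance of the body.

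Levels are given as CPM, the counts of a gene summed over the cells of a group and scaled to 1e6 nuclear gene counts, with exact 95% Poisson intervals where given. The share of cells is the percentage at or above 10 CPM, with exact 95% Clopper-Pearson intervals. Without molecular identifiers the reads are not independent molecules, so all intervals and limits cover counting error only. Nuclear counts per cell ran from 216816 to 667862 in young and 87576 to 533765 in old MSC-L, and from 104972 to 885957 in young and 167867 to 1115467 in old MSC-S. They ran from 79352 to 1261596 in young and 57517 to 1488549 in old OPr, and from 329854 to 966204 in young and 238298 to 842191 in old mOPr.

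Reads of these genes were also present in endothelial cells. At a bar of at least 1 count, *Ibsp* was found in 42.9% of young and 32.9% of old AEC. At the bar of 10 CPM those shares were 8.33% and 1.22%, but in SEC they were 37.1% in young and 12.7% in old cells. *Bglap* reached 10 CPM in 0 of 70 young and 0 of 71 old SEC. Over all 307 endothelial cells it was at 5.09 CPM, and 1 old AEC at 1082 CPM held 99.3% of those counts. Without that cell 0.0358 CPM remained. *Ibsp* in young SEC, at 1038 CPM, lay largely in the endothelial cluster E1, which the study marked as doublets: without E1 it was 155 CPM, an alternative chosen after the data were seen. Even then 27.9% of young and 8.96% of old SEC reached 10 CPM of *Ibsp*, with a highest cell at 2511 CPM, and whether these reads are background, doublets or expression was not tested. *Alpl*, an enzyme that endothelium also makes, was present there too, with 470 CPM (469.7) in young and 700.4 CPM in old AEC and 1261 CPM in the endothelial cluster E3.

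*Runx2*, the lineage-determining factor, was highest in the marrow population. Its level was 439 CPM (430.5 to 447.7) in young MSC-L and 348 CPM (339.4 to 356) in old MSC-L. Nearly every MSC-L carried it, 96.2% (87.0 to 99.5) of young and 93.1% (83.3 to 98.1) of old cells. In the endosteal progenitors it was present in a smaller part of the cells, 63.6% of young and 65.5% of old OPr. The share in mOPr was 34.6% (17.2 to 55.7) in young and 65.4% (44.3 to 82.8) in old cells, whose intervals overlap. MSC-S held the lowest level at both ages, 19.997 CPM in young and 27.2 CPM in old cells.

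*Sp7*, the factor that acts after *Runx2*, was sparser. It was at 65.2 CPM in young and 85.6 CPM in old MSC-L, at 49.1 and 49.2 CPM in young and old OPr, and at 28.2 and 90.6 CPM in young and old mOPr. In MSC-S it was close to absent, at 1.42 CPM in young and 0.510 CPM in old cells. The levels in young and old OPr lie within each other's counting intervals. At 10 CPM the share was 40.9% of young OPr and 13.8% (3.89 to 31.7) of old OPr, and the intervals of these shares overlap. The old OPr include 8 cells with hematopoietic markers, described below, that held 0 counts of *Sp7*, and 1 old cell held 62.4% of the counts. Across all mesenchymal cells, 85 of the 86 cells with *Sp7* also carried *Runx2*, which 58.2% of all mesenchymal and 97.8% of MSC-L-like cells carried. The highest cell of old mOPr held 46.3% of its *Sp7* counts, and without it the level was 51.9 CPM.

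*Alpl*, the alkaline phosphatase of matrix vesicles, was highest in the endosteal progenitors, unlike *Runx2*. Young OPr had 876 CPM (864.9 to 886.3) and old OPr 374 CPM (365.6 to 382.0), or 137 CPM without the old cell that held 64.3%, with a range over young cells from 0 to 7251 CPM around a median of 10.1 CPM. Young mOPr had 458 CPM and old mOPr 711 CPM, or 289.5 and 242 CPM without the highest cell of each. MSC-L were lower, at 152 CPM in young and 174 CPM in old cells, and without the highest young cell, with 52.8% of the counts, 73.1 CPM remained. MSC-S had 75.5 CPM in young and 52.9 CPM in old cells, carried by 8.47% and 10.2% of the cells, or 42.2 and 14.8 CPM without the highest cell of each.

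*Ibsp*, bone sialoprotein, which binds hydroxyapatite and helps to seed mineral, belonged above all to young MSC-L. There it reached 8012 CPM (7975 to 8049), and single cells ran from 3.59 to 21946 CPM with a median of 7311 CPM. In old MSC-L it was 2829 CPM (2805 to 2853), and single cells ran from 0 to 14376 CPM with a median of 1609 CPM. The ages overlapped, but only 3 of 58 old MSC-L lay above the median of the young cells, while 43 of 53 young MSC-L lay above the median of the old ones. Old mOPr followed with 2284 CPM, ahead of young OPr with 1161 CPM, old OPr with 779 CPM and young mOPr with 699 CPM, or 296 CPM without its highest cell. In MSC-S it was 331 CPM in young and 87.7 CPM in old cells, and only 13.6% and 5.08% of the cells carried it.

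*Spp1*, osteopontin, an acidic phosphoprotein that binds both mineral and cells, was highest in old mOPr, at 5704 CPM (5662 to 5746). It was at 3888 CPM in old MSC-L, 3302 CPM in young mOPr and 2704 CPM in young MSC-L. Old OPr had 2144 CPM and young OPr 1049 CPM, of which 1 cell held 39.4%, and without it the level was 653 CPM. In MSC-L the median cell stood at 1422 CPM in young and 2787 CPM in old mice, and 39 of 58 old cells exceeded the young median. Old MSC-S were the low end, at 16.97 CPM, or 5.95 CPM without the highest cell, against 590.2 CPM in young MSC-S.

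*Bglap* and *Bglap2* encode osteocalcin, the vitamin K-dependent protein of the mature osteoblast, and both had their highest levels in the endosteal progenitors. *Bglap* was at 666 CPM in young and 299 CPM in old mOPr and at 143 CPM in young and 29.8 CPM in old OPr. MSC-L, with the highest *Runx2* and *Ibsp*, had 2.37 CPM in young and 2.87 CPM in old cells, with 1 of 53 and 3 of 58 cells at 10 CPM or more. MSC-S had 9.98 CPM in young and 3.52 CPM in old cells, with 7 and 4 of 59 cells at 10 CPM or more. Without the highest cell of each age the MSC-S levels were 5.78 and 1.82 CPM. No MSC-L of either age reached 100 CPM of *Bglap* (0 of 53 young cells, with an upper limit of 6.72%, and 0 of 58 old cells, with an upper limit of 6.16%), whereas 11 of 44 young and 1 of 29 old OPr, 5 of 26 young and 3 of 26 old mOPr, and 2 of 59 young and 0 of 59 old MSC-S did. *Bglap2* had the same order of groups, from 152 CPM in young mOPr to 0.702 CPM in young MSC-L. One young mOPr cell held 33.1% of all mesenchymal *Bglap2* counts. The levels of the 2 genes are not compared, since they share different parts of their sequence with other copies, as described below.

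Few cells held most of the osteocalcin. In young mOPr 1 cell carried 76.5% of the *Bglap* counts and in old mOPr 1 cell carried 80.8%, and without them the levels were 162 and 58.8 CPM. In old OPr 1 cell of cluster M3 carried 94.8%, and without it 1.60 CPM remained. In young and in old mOPr 6 of 26 cells reached 10 CPM. Young OPr were broader, with 18 of 44 cells (40.9%, 26.3 to 56.8) at 10 CPM or more against 2 of 29 old OPr (6.90%, 0.846 to 22.8). These intervals cover only the counting of cells, not the mice, and the difference was not tested. The 29 old OPr include 8 cells with hematopoietic markers, described below, that held 0 counts of *Bglap*. Of the other 21 old OPr, 2 reached 10 CPM.

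*Phex*, a membrane peptidase that restrains the phosphate hormone pathway and is placed late on the path, did not follow osteocalcin. It was highest in old MSC-L, at 386 CPM (377.0 to 394.5), against 123 CPM (118.1 to 127.3) in young MSC-L. The share of MSC-L that carried it was 33.96% (21.5 to 48.3) in young and 72.4% (59.1 to 83.3) in old mice, and the median cell stood at 0 CPM in young and 152 CPM in old mice. In the endosteum *Phex* was at 8.84 CPM in young mOPr, where 1 cell held 98.4% of 129 counts, and 85.1 CPM in old mOPr, or 53.8 CPM without the highest cell, and at 3.92 CPM in young and 74.4 CPM in old OPr. MSC-S held 3 counts in all young and 35 counts in all old cells.

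*Dmp1*, an acidic matrix protein typical of osteocytes, was rare everywhere. Young MSC-L had 16.3 CPM and old MSC-L 12.6 CPM, in 13.2% and 10.3% of the cells. The 18.5 CPM of old OPr came from 1 cell of cluster M5 at 752 CPM, which also carried 937 CPM of *Phex*. Young mOPr had 105 counts and old mOPr 1 count.

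*Ifitm5*, also known as BRIL, is a small membrane protein known from osteoblasts and mutated in a brittle bone disease. It was highest in mOPr, at 47.9 CPM in young and 37.5 CPM in old cells, or 1.56 and 14.9 CPM without the highest cells, which held 96.8% of the young and 61.5% of the old counts. OPr had 5.11 CPM in young and 2.34 CPM in old cells, and MSC-L 2.50 CPM in young and 0.923 CPM in old cells. In OPr 1 cell held 111 of the 150 young counts and 1 cell all 50 old counts. One young MSC-L held 31 of the 75 counts of MSC-L at both ages. It reached 10 CPM in 15 mesenchymal cells in all, 14 of which also carried *Runx2*. That is 4.24% of mesenchymal cells, beside 12 of 307 endothelial cells (3.91%), and old AEC had 4.19 CPM.

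**Figure D1:**
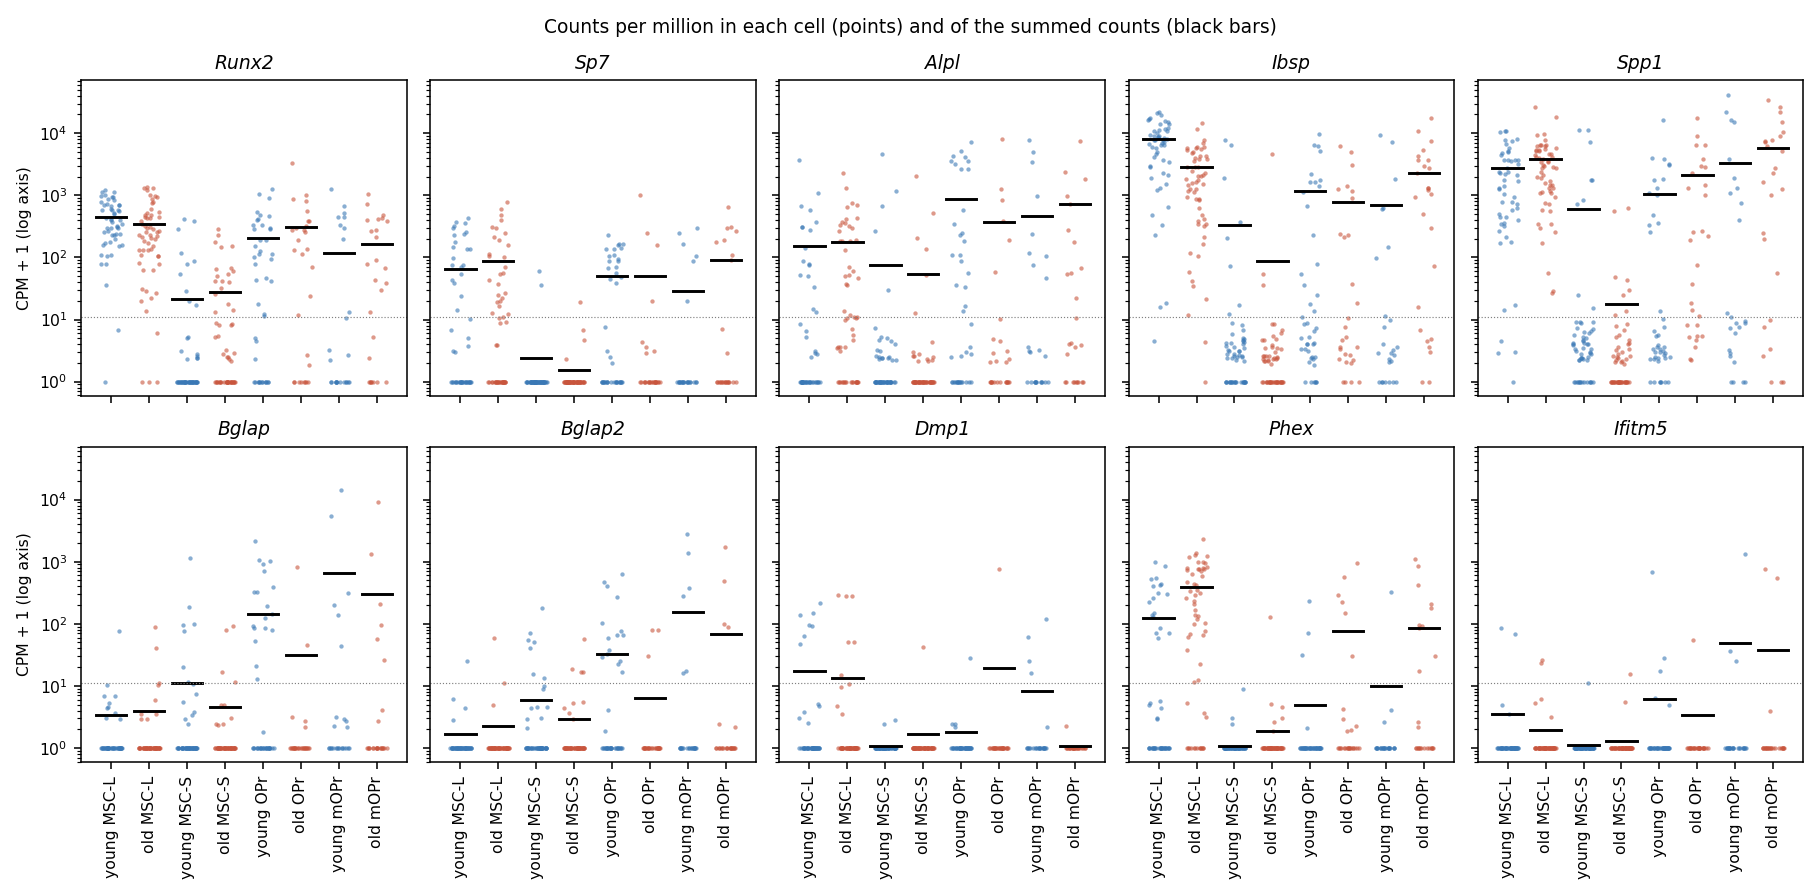
Each panel is 1 gene, each point 1 cell (blue young, red old), the black bar the CPM of the summed counts, the dotted line 10 CPM, and the vertical axis CPM + 1 on a log scale for the 4 mesenchymal populations at both ages. Young MSC-L crowd near the top for *Ibsp* (median 7311 CPM), whereas *Bglap* and *Ifitm5* show a few high endosteal cells over many at 0.

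The genes can be ranked against each other only per kilobase of exon, since long transcripts yield more reads. On that scale young MSC-L had 3874 CPM per kb of *Ibsp* and 1641 of *Spp1*. Then came 49.7 of *Runx2*, 37.6 of *Alpl*, 19.5 of *Phex* and 19.2 of *Sp7*, the last 2 within each other's intervals. The place of *Alpl* above *Phex* and *Sp7* rests on its highest cell, described above. In old MSC-L the order of the top pair was the other way, with 2359 CPM per kb of *Spp1* and 1368 of *Ibsp*, and *Phex* came next at 61.3. Young OPr had 637 CPM per kb of *Spp1*, 561 of *Ibsp*, 232 of *Bglap* and 217 of *Alpl*. The rank of *Spp1* above *Ibsp* there rests on the cell with 39.4% of the *Spp1* counts. That of *Bglap* above *Alpl* rests on the cell with 37.1% of the *Bglap* counts. In young mOPr *Spp1* led with 2004 CPM per kb and *Bglap* came next with 1077, above *Ibsp* with 338, a rank that rests on the cell with 76.5% of the *Bglap* counts. The early-to-late order used here is thus not the order of abundance in any of these 4 groups. On these counts a matrix gene of the middle of the path, *Ibsp* or *Spp1*, had the highest level per kb in each. Osteocalcin counts are low by an unknown amount, as described below, so the rank of *Bglap* may be too low.

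The comparison of old with young cells asks how the osteogenic program of each stromal population differs with age. It is given as the log2 ratio of old to young CPM, with 1 CPM added to each, for genes whose counts at the 2 ages together reach 100 and that occur in 5 cells or more. A gene is counted as higher or lower in old cells at a 2-fold ratio or more, and the share of all genes past the same fold is given beside the count of the 10. That share is also the background for the list counts of the same population. Titles number the mesenchymal libraries in 2 ranges that each hold both ages, and the ratio within each range is given where it bears on a result.

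In MSC-L, 8 of the 10 genes passed the filter, all but *Bglap2* and *Ifitm5*. One of the 8, *Phex*, was higher in old cells and 1, *Ibsp*, was lower, against 13.9% and 11.5% of all 13143 genes that passed. These shares of the 8 are near the background. Over MSC-L-like cells of any gate, 3 of 9 genes were higher and 1 lower in old cells, with a median of 0.76. The shares of all 13862 genes there were 13.7% and 9.22%. The 3 higher genes were *Phex*, *Alpl* and *Bglap2*. *Alpl* was at 252 CPM in young and 523 CPM in old cells, and 1 old cell held 32.8% of the old counts. *Bglap2* had 21 young and 144 old counts, with 3 of 80 old cells at 10 CPM or more. The median log2 ratio over the 8 was 0.20, against 0.01 over all genes. *Ibsp* differed by -1.50, and by -1.05 and -1.73 within library ranges 1 and 2. *Phex* differed by 1.65, and by 2.47 and 1.37 within the ranges. *Spp1*, at 0.52, was past the fold in range 1 (1.18) and not in range 2 (0.10). *Runx2* was at -0.34, with 0.19 in range 1 and -0.60 in range 2, so its direction differed between ranges. *Sp7* (0.39), *Alpl* (0.20), *Bglap* (0.20) and *Dmp1* (-0.35) stayed within the fold. The ranges had opposite signs for *Sp7* (-0.03 and 0.65), *Alpl* (0.85 and -0.21) and *Dmp1* (-0.88 and 0.36), while *Bglap* had 0 young and 15 old counts in range 1 and was at -0.14 in range 2.

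Most genes of the wider osteogenic lists, apart from the osteocyte genes, lay within the fold in MSC-L. Of 10 osteoblast transcription factors that passed, 2 were higher and 0 lower in old cells, and of 12 bone matrix genes 2 were higher and 1 lower. Of 9 mineralization and phosphate genes 0 were higher and 2 lower, of 10 receptors and signals 1 was higher and 0 lower, and of 7 osteocyte genes 3 were higher and 2 lower. The lower pair, *Fbln7*, a matrix adhesion protein (-3.18, from 16.0 to 0.872 CPM), and *Ptprz1*, a receptor phosphatase (-4.20, from 21.1 to 0.205 CPM), were the only genes of these lists past 4-fold in this population. The marrow stromal markers themselves summed to 62604 CPM in young and 50873 CPM in old MSC-L, with 10 of 10 at 10 CPM or more at both ages and *Cxcl12* the most abundant. The hematopoietic list summed to 49.5 CPM in young and 141 CPM in old MSC-L (2 and 4 of 15 markers at 10 CPM or more, the most abundant *Cybb* and *Lyz2*), and its part in the ratios was not tested.

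In MSC-S, 6 genes passed the filter, of which 0 were higher and 4 lower in old cells, against 8.65% and 11.1% of 13381 genes. The 4 were *Spp1* (-5.04), *Ibsp* (-1.90), *Bglap* (-1.28) and *Bglap2* (-1.02), and the median over the 6 was -1.15 against -0.06 for all genes. These values rest on very few cells. Without the highest cell of each age *Spp1* was -5.86 and *Ibsp* -6.01, since 1 old cell of cluster M14 held 98.2% of the old *Ibsp* counts and 1 young cell of M4 held 50.03% of the young ones. Within library range 1 *Ibsp* was higher in old cells, at 7.33, and within range 2 lower, at -8.08, so no single direction can be given for it. *Spp1* was lower in old cells in both ranges, at -1.63 and -5.57. The other 2 that passed, *Alpl* (-0.51) and *Runx2* (0.43), also had opposite signs in the ranges, at 6.70 and -5.59 for *Alpl* and 2.81 and -0.11 for *Runx2*.

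Of the young MSC-S counts of *Spp1*, 92.4% lay in 5 cells of cluster M15, a cluster that held 17 young and no old cells. M15 had 10 of 12 chondrocyte markers at 10 CPM or more, which summed to 22579 CPM and were led by *Comp* at 10812 CPM. Over all MSC-S the same list summed to 8311 CPM in young and 2949 CPM in old cells, and 8 of the 10 markers that passed were lower in old cells. Whether the chondrocyte-like cells account for the *Spp1* ratio was not tested. Among the wider lists in MSC-S, 2 transcription factors were higher and 1 lower of 11, and the lower one was *Vdr*, the vitamin D receptor (-2.78). Of 14 matrix genes 2 were higher and 4 lower, with *Col11a2*, a fibrillar collagen of cartilage and bone, at -2.08. Of 13 receptors and signals 1 was higher and 3 lower, among them *Fgfr3*, a growth factor receptor of the growth plate (-2.31), and *Wif1*, a secreted Wnt inhibitor (-2.12). Of 11 mineralization genes 2 were higher and 0 lower, and of 7 osteocyte genes 1 was higher and 0 lower.

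In OPr all 10 genes passed, and 3 were higher and 3 lower in old cells, against 25.6% and 19.6% of 13418 genes. The higher ones were *Phex* (3.94), *Dmp1* (3.42) and *Spp1* (1.03) and the lower ones *Bglap2* (-2.34), *Bglap* (-2.23) and *Alpl* (-1.23), with a median over the 10 of -0.29 against 0.14 for all genes. The counts are close to the background shares, and 1 cell decides several of the values. Without the highest cell of each age *Dmp1* was -0.14, *Bglap* -5.17, *Alpl* -2.38 and *Sp7*, level before at 0.00, was -1.18. *Phex* was at 4.18 without those cells and at 4.10 and 3.81 within the library ranges. *Bglap2* was at 0.75 in range 1 and -3.01 in range 2. *Bglap* was at -4.56, on 2 old counts, and -2.20 in the ranges, *Alpl* at -0.86 and -1.40 and *Spp1* at 1.34 and 0.80. *Sp7* was at -1.09 and 0.48, and *Dmp1* at 3.74 in range 2, with 1 young and 0 old counts in range 1.

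The make-up of the OPr gate differed between the ages. Clusters M1 and M2 held 10 of the 29 old OPr and 3 of the 44 young OPr, and the 10 marrow stromal markers summed to 6713 CPM in young and 24524 CPM in old OPr, all 10 at 10 CPM or more at both ages and led by *Cxcl12*. Those 10 old cells carried most of the old *Spp1* counts (32.2% in M1 and 58.3% in M2), and 88.0% of the old *Alpl* counts lay in the 3 cells of M2. Of the old *Phex* counts 49.4% lay in M1 and 19.5% in M2, and 1 cell held 99.6% of those in other cells. A further 8 old OPr, all in M5, carried 12 or more of 15 hematopoietic markers, while no other mesenchymal cell carried more than 6. The hematopoietic list summed to 33.6 CPM in young OPr (1 of 15 at 10 CPM or more, led by *Lcp1*, *Cd52* at 0) and 11176 CPM in old OPr (15 of 15, led by *S100a9* at 4041 CPM). In these 8 cells *Sp7*, *Bglap*, *Bglap2*, *Dmp1* and *Ifitm5* were at 0 counts, while *Runx2* was at 70.7 CPM in 3 cells and *Spp1* at 254 CPM in 5 cells.

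With both kinds of cell left out, a choice made after the data were seen, 41 young and 11 old OPr remained. Of 9 genes that then passed, 2 were higher and 5 lower in old cells, against 23.7% and 28.1% of 11736 genes, and the median was -1.06 against 0.00. The lower ones were *Sp7* (-4.88), *Alpl* (-3.36), *Bglap2* (-1.72), *Ibsp* (-1.41) and *Spp1* (-1.06), so *Spp1* had the other sign. The other 2, *Bglap* and *Ifitm5*, were within the fold, so *Bglap*, at -2.23 over all OPr, was no longer counted as lower. One cell held 605 of the 607 old *Bglap* counts that remained. The higher ones were *Phex* (4.64) and *Runx2* (1.16), in which 1 old cell held 99.8% and 72.9% of the counts. *Alpl* then stood at 958 CPM in young and 92.7 CPM in old OPr, and *Sp7* at 46.9 and 0.623 CPM.

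Cartilage-like cells also differed between the ages. Cluster M3 held 15 young OPr and 1 old OPr, and there 12 of 12 chondrocyte markers were at 10 CPM or more and summed to 127817 CPM, led by *Col2a1* at 58347 CPM. Over all OPr the list summed to 58888 CPM in young and 7329 CPM in old cells, and 12 of 12 markers were lower in old cells. The 15 young M3 cells held 78.8% of the *Alpl* counts of young OPr, 63.6% of those of *Sp7* and 55.4% of those of *Bglap*. Without M3, also chosen after the data were seen, *Alpl* was 282 CPM in young and 380.5 CPM in old OPr, a log2 ratio of 0.43, and *Bglap* was 96.9 and 1.60 CPM, a log2 ratio of -5.23. There 1 young cell held 54.5% and 1 old cell 65.5% of the *Alpl* counts, and without them 133 and 135.5 CPM remained. For *Bglap* 1 young cell held 83.3% of the counts. Without the highest cell of each age *Bglap* was at 16.8 and 0.200 CPM. Which of these cell types accounts for which ratio was not tested.

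Of 14 bone matrix genes in OPr 1 was higher and 10 were lower, with a median of -1.97, beside 25.6% and 19.6% of all genes. *Col1a1*, the main collagen of bone, went from 1704 to 138 CPM (-3.62) and *Sparc*, the collagen-binding osteonectin, from 23494 to 2769 CPM (-3.08). *Cthrc1*, *Postn*, *Col11a2*, *Col24a1* and *Col5a2* were also past 4-fold lower, at -3.80, -3.68, -3.64, -3.00 and -2.19. Of the other matrix genes abundant in young OPr, *Mgp*, an inhibitor of calcification, was at 5911 and 3408 CPM and *Bgn*, a small proteoglycan, at 4118 and 2565 CPM.

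Of 11 mineralization and phosphate genes in OPr 1 was higher and 7 lower, with a median of -1.03. *Smpd3*, a sphingomyelinase needed for bone mineral, was at 733 and 40.1 CPM (-4.16), *Slc13a5*, a citrate carrier, at 70.5 and 3.51 CPM (-3.99), *Slc20a1*, a phosphate carrier, at -3.21 and *Ank*, which exports pyrophosphate, at -2.28. *Anxa5*, an annexin of matrix vesicles and the most abundant of the list, was at 798 and 391 CPM. Of 13 receptors and signals 2 were higher and 4 lower. *Tnfrsf11b*, the osteoclast inhibitor osteoprotegerin, was at -2.25, *Cgref1* at -4.65 and *Lifr*, a cytokine receptor, at 2.56, while *Pth1r*, the parathyroid hormone receptor, was at 836 and 325 CPM. Of 8 osteocyte genes 3 were higher (*Cd44* 2.37, *Kcnk2* 2.22) and 4 lower (*Fbln7* -5.27, *Capg* -2.07). Of 10 transcription factors 1 was higher and 1 lower, and the most abundant, *Atf4*, was at 406 and 261 CPM. Chondrocytes make several of these genes too, among them *Sparc* and *Col11a2*, and their part was not tested.

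In mOPr all 10 genes passed, and again 3 were higher and 3 lower in old cells, against 24.7% and 19.8% of 11237 genes. The higher ones were *Phex* (3.13), *Ibsp* (1.71) and *Sp7* (1.65), and the lower ones *Dmp1* (-2.92), *Bglap2* (-1.16) and *Bglap* (-1.15). The median over the 10 was 0.55 against 0.11 for all genes. *Ibsp* was higher in both library ranges (2.63 and 1.18) and was at 2.61 without the highest cells. For *Phex* range 2 gave 1.89, range 1 held 1 young and 560 old counts, and the highest young cell held 127 of the 129 young counts, so its size is poorly fixed. The old median of *Ibsp* was 1135 CPM against 2.05 CPM in young mOPr, and 23 of 26 old cells exceeded the young median. For *Sp7* the ranges gave 0.55 and 2.17. *Bglap* was at -5.26 and -1.03 in the ranges and *Bglap2* at -3.64 and -0.86. *Spp1*, at 0.79, was past the fold in range 1 only (1.11 and 0.54). *Alpl*, at 0.63, had opposite signs in the ranges (-1.08 and 2.99) and was at -0.26 without the highest cell of each age. *Ifitm5*, at -0.34, was at 2.63 without those cells. The *Dmp1* ratio rests on 1 count in old cells, and without a pseudocount it was -6.49 with a counting interval from -11.81 to -3.98.

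Here too the marrow-like clusters M1 and M2 differed between the ages, with 14 of 26 old and 2 of 26 young mOPr. The marrow stromal markers summed to 1137 CPM in young mOPr (9 of 10 at 10 CPM or more) and 22492 CPM in old mOPr (10 of 10), led by *Cxcl12* at 552 and 18595 CPM. In old mOPr the M2 cells alone held 85.1% of the *Sp7* counts, 84.4% of those of *Alpl*, 73.5% of those of *Spp1* and 40.8% of those of *Ibsp*, with a further 28.3% of *Ibsp* in M1. Without M1 and M2, 24 young and 12 old mOPr remained and 9 genes passed, of which 1 was higher (*Ibsp*, 1.40) and 1 lower (*Dmp1*, with 105 counts in young and 0 in old cells), against 21.8% and 32.6% of 9798 genes. *Ibsp* then had medians of 1.93 CPM in young and 4.82 CPM in old cells, and 1 cell held 77.5% of the young and 1 cell 73.98% of the old counts. *Phex* no longer passed, since it was found in fewer than 5 cells, with 1 young and 443 old counts and 92.8% of the old ones in 1 cell. The median was then -0.31 against -0.18 for all genes, and *Sp7* had the other sign, at -0.41. One old cell held 97.3% of the 113 old *Sp7* counts. Without the highest cell of each age *Sp7* was at 17.4 CPM in young and 0.542 CPM in old cells. Chondrocyte markers summed to 12569 CPM in young and 814 CPM in old mOPr, led by *Comp*, and 10 of the 10 that passed were lower in old cells. Pericyte markers summed to 503 CPM in young mOPr (3 of 6 at 10 CPM or more, led by *Cspg4*, *Rgs5* at 0) and 2336 CPM in old mOPr (5 of 6, led by *Acta2*), and to 786 and 2357 CPM in young and old OPr (4 and 5 of 6). The part of these cell types in the ratios was not tested.

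In mOPr, of 14 matrix genes 1 was higher and 6 were lower (median -0.73), and *Col5a2*, a minor fibrillar collagen, at -2.25 was the 1 past 4-fold. Of 10 mineralization genes 1 was higher and 5 lower (median -1.31), with *Ank* at -2.98, *Slc20a1* at -2.76 and *Slc20a2*, a second phosphate carrier, at -2.25. Of 13 receptors and signals 3 were higher and 2 lower, and *Tnfrsf11b* went from 399 to 2.64 CPM (-6.78). Of 8 osteocyte genes 2 were higher and 4 lower, with *Kcnk2* at 2.80 and *Fbln7*, *Capg*, *Cd44* and *Ptprz1* at -7.72, -2.73, -2.57 and -2.35. Of 11 transcription factors 3 were higher and 3 lower, with *Dlx3* at -4.29 and *Zfp521*, a zinc finger protein that restrains *Runx2*, at -2.92.

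The same cells can be viewed by ICGS cluster. This is a description only, since the clusters were built from the genes of these cells and *Runx2*, *Spp1* and *Ibsp* are among the guide genes. MSC-L-like cells, 38.4% of mesenchymal cells, held 70.6% of the counts of *Runx2*, 75.5% of *Sp7*, 83.3% of *Ibsp*, 69.5% of *Spp1* and 90.5% of *Phex*. OPr-like cells, 26.6% of the cells, held 96.8% of *Bglap*, 91.8% of *Bglap2* and 93.2% of *Ifitm5*. *Alpl* was divided, with 54.4% in OPr-like and 41.01% in MSC-L-like cells. For *Dmp1* these shares were 42.3% and 52.9%, but 1 old OPr held 79.96% of the OPr-like counts and 33.8% of all mesenchymal counts. MSC-S-like cells, 35.03% of the cells, held at most 10.6% of any of the 10 genes, for *Spp1*.

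M1 and M2 shared *Runx2*, at 406 and 402 CPM, but differed in what else they held. *Ibsp* was higher in M1 (5308 CPM) than in M2 (3204 CPM), while *Alpl* (102 and 1118 CPM), *Sp7* (62.1 and 154 CPM) and *Spp1* (2838 and 6825 CPM) were higher in M2. For *Alpl* and *Sp7* a few cells weigh heavily. The 2 cells with the most *Alpl*, at 9.96% and 8.46% of all mesenchymal counts, lay in M2. So did the 3 cells with the most *Sp7* (9.04%, 7.22% and 5.77%). *Alpl* reached 10 CPM in 35 of 86 M1 and 24 of 50 M2 cells, and *Sp7* in 38 and 23 of them. Osteocalcin also separated them, with *Bglap* at 0.494 CPM in M1 and 17.8 CPM in M2, or 9.41 CPM without the highest M2 cell. No M1 cell reached 10 CPM of *Bglap* (0 of 86 cells, with an upper limit of 4.199%), against 12.0% of M2 cells. M2 was made up of 23 old MSC-L, 10 old mOPr, 3 old OPr, 12 young MSC-L and 2 young mOPr.

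The ages can also be set side by side within these marrow clusters. *Ibsp* was at 8043 CPM in 42 young and 2699.7 CPM in 44 old cells of M1, and at 5648 CPM in 14 young and 2294 CPM in 36 old cells of M2. *Phex* was at 98.2 and 269 CPM in M1 and at 143 and 251 CPM in M2. *Spp1* was at 2486 and 3174 CPM in M1 and at 4249 and 7784 CPM in M2. The MSC-L gate supplied most of these cells, so the values are not independent of those given above for it.

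The OPr-like clusters differed more among themselves. M3, with its chondrocyte markers, had 1895 CPM of *Alpl*, 85.4 CPM of *Sp7*, 233 CPM of *Runx2* and 273 CPM of *Bglap*, each in at least 81.2% of its 16 cells, yet *Spp1* was at 1.86 CPM and in 0 of 16 cells at 10 CPM. Its 632 CPM of *Ibsp* came to 99.2% from 1 cell. M4 was the reverse, with 2099 CPM of *Spp1* and 1338 CPM of *Ibsp* but 0.971 CPM of *Sp7* and 0.216 CPM of *Bglap*. In M4 1 cell held 62.3% of the *Spp1* counts and 1 cell 46.1% of the *Ibsp* counts, and without them the levels were 862 and 783 CPM. M5 held 81.3% of all mesenchymal *Bglap* counts, 84.2% of *Bglap2* and 92.0% of *Ifitm5*, at 502, 121 and 43.8 CPM, and its highest cell gave 48.4% of that *Bglap*. *Bglap* reached 10 CPM in 29.2% of the 65 M5 cells, which included the 8 cells with hematopoietic markers, and in 87.5% of the M3 cells.

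Among the MSC-S-like clusters only M6, M10, M11, M14 and M15 had any of the 10 genes at 100 CPM or more. In M7, 14 of 15 cells carried none of them, and in M8, M9 and M16 no cell reached 10 CPM of *Alpl* or *Ibsp*. M6, with 5 cells, had 132 CPM of *Alpl*, with 1 cell at 10 CPM or more, and the single cell of M11 had 759 CPM of *Spp1*. M14, with 4 cells, had 2979 CPM of *Ibsp* and 782 CPM of *Alpl*, and M15, with 17 cells, had 2986 CPM of *Spp1* and 1014 CPM of *Ibsp*. Without the highest cell M14 had 1897 CPM of *Ibsp* and 230.2 CPM of *Alpl*, and M15 541 CPM of *Ibsp*. In M15 osteocalcin, *Dmp1*, *Phex* and *Ifitm5* were at 0 counts. M10, a single young mOPr, carried *Runx2*, *Sp7*, *Bglap*, *Bglap2* and *Dmp1* but no count of *Alpl*, *Ibsp* or *Spp1*.

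**Figure D2:**
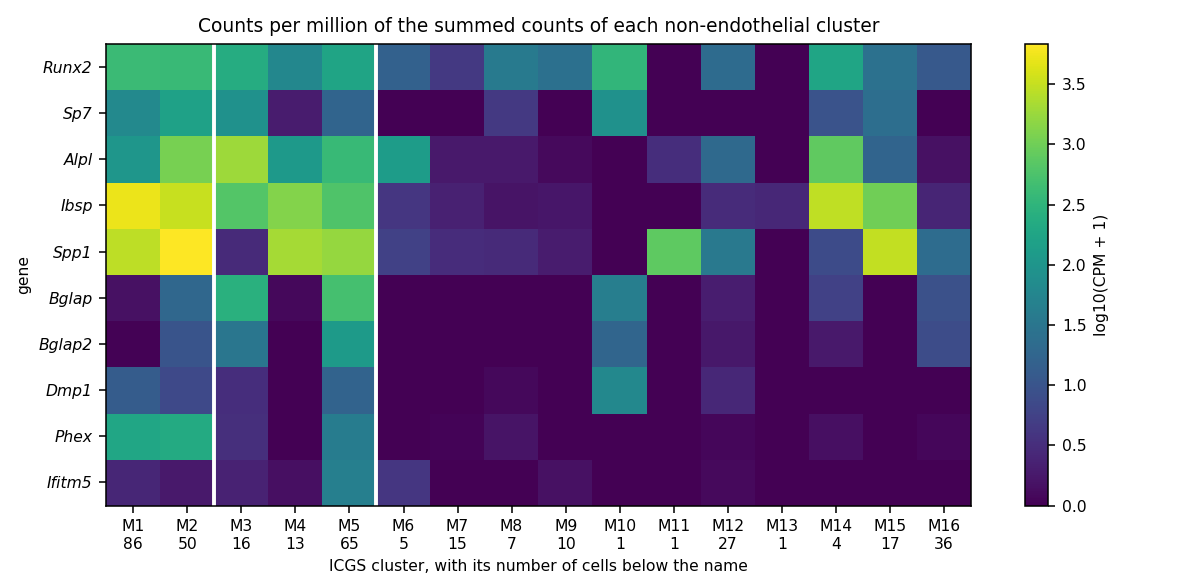
The colour of each tile gives log10 of CPM + 1 of 1 gene in 1 of the 16 mesenchymal ICGS clusters, whose cell numbers stand under their names, and white lines part the 3 identity groups. *Runx2*, *Ibsp*, *Spp1* and *Phex* are bright in M1 and M2, while *Bglap*, *Bglap2* and *Ifitm5* are brightest in M5, at 502, 121 and 43.8 CPM.

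Cells differed in how many of the 10 genes they carried together. The median was 4 in young and 5 in old MSC-L, 3 in young and 2 in old OPr, 1 in young and 4 in old mOPr, and 0 in MSC-S of both ages. At least 3 of the genes were carried by 96.2% of young and 96.6% of old MSC-L, by 54.5% (38.8 to 69.6) of young and 41.4% (23.5 to 61.1) of old OPr, and by 30.8% (14.3 to 51.8) of young and 65.4% (44.3 to 82.8) of old mOPr. Without M1 and M2 they were 51.2% of young and 21.1% of old OPr. In mOPr they were then 25.0% of young and 33.3% of old cells, with a median of 1 gene at both ages. Leaving out only the 8 old OPr with hematopoietic markers gave 57.1% of old OPr, above the 54.5% of young OPr. Leaving out both kinds of cell gave 36.4% (10.9 to 69.2) of the 11 old OPr left. In MSC-S it was 8.47% at both ages, beside 1.19% of young and 1.22% of old AEC and 11.4% of young and 7.04% of old SEC, the cells of E1 included. At least 5 were carried by 35.8% of young and 63.8% of old MSC-L. No mesenchymal cell carried all 10.

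The highest count, 9, belonged to a young mOPr of M5 that lacked only *Phex*. That cell had 14390 CPM (14389.6) of *Bglap*, 22091 CPM of *Spp1*, 1309 CPM of *Ifitm5* and 101996 CPM of *Col1a1*, and held 39.4% of all mesenchymal *Bglap* counts and 46.4% of those of *Ifitm5*. An old mOPr of M5 came next for *Bglap*, with 9218 CPM of it, 544 CPM of *Ifitm5*, 8 of the genes and 76572 CPM of *Col1a1*. Another old mOPr of M5 had 766 CPM of *Ifitm5* and 63910 CPM of *Col1a1*, and a young OPr of M5 had 681 CPM of *Ifitm5* and 1025 CPM of *Bglap*.

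Cells with a late gene can be described by the other genes they carried. Over all 354 mesenchymal cells the shares were 58.2% for *Runx2*, 29.4% for *Alpl*, 49.7% for *Ibsp*, 53.7% for *Spp1*, 13.3% for *Bglap*, 11.9% for *Bglap2* and 22.9% for *Phex*. Of the 47 mesenchymal cells with *Bglap*, 80.9% also carried *Runx2*, 76.6% *Bglap2* and 68.1% *Alpl*, but 44.7% (30.2 to 59.9) *Ibsp* and 12.8% (4.83 to 25.7) *Phex*. Of the 81 cells with *Phex*, 92.6% carried *Ibsp* and 96.3% *Spp1*, but 7.41% (2.77 to 15.4) *Bglap*. The cells with *Bglap* were 32 young and 15 old, and those with *Phex* 22 young and 59 old. No difference between these shares was tested. Of the 20 cells with *Dmp1*, 11 carried *Phex* and 5 carried *Bglap*.

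**Figure D3:**
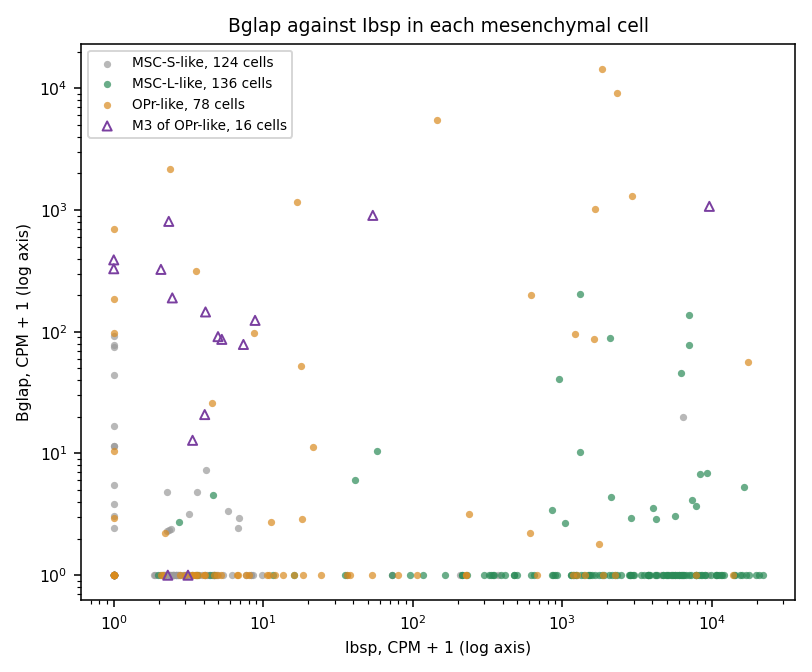
Each point is 1 of the 354 mesenchymal cells, placed by CPM + 1 of *Ibsp* and of *Bglap* on log axes, with colours for the ICGS identity group and open triangles for the 16 cells of M3. Cells high in *Ibsp* are mostly MSC-L-like with little *Bglap*, M3 cells are mostly high in *Bglap* with little *Ibsp*, and 21 of the 47 cells with *Bglap* at 10 CPM or more also carry *Ibsp* at 10 CPM or more.

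Correlations over cells, given as a description, are Pearson r of log2(CPM + 1). Over all 354 mesenchymal cells r was 0.85 for *Bglap* with *Bglap2*, 0.70 for *Ibsp* with *Spp1*, 0.64 for *Runx2* with *Ibsp* and -0.02 for *Ibsp* with *Bglap*. The cells fall into distinct groups, and inside a group the picture differed. Over the 136 MSC-L-like cells r was 0.04 for *Ibsp* with *Spp1*, 0.03 for *Runx2* with *Sp7* and -0.02 for *Ibsp* with *Phex*. In the same cells it was 0.77 for *Bglap* with *Bglap2*, 0.29 for *Sp7* with *Alpl* and 0.20 for *Runx2* with *Ibsp*. Over the 94 OPr-like cells the early genes moved with osteocalcin. There r was 0.61 for *Runx2* with *Sp7*, 0.65 for *Sp7* with *Alpl* and 0.58 for *Alpl* with *Bglap*. It was 0.54 for *Runx2* with *Bglap* and 0.43 for *Ibsp* with *Spp1*. These 94 cells come from M3, M4 and M5, whose levels of these genes differ. They include the 8 old OPr with hematopoietic markers, which held 0 counts of *Sp7* and *Bglap*. No r within a cluster or without those 8 cells is given.

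The genes most like 3 of the 10 over the 354 cells, among 15673 genes, were also looked up. For *Bglap* they were *Bglap2* (0.85), then *Slc13a5* (0.51), *Col13a1* (0.51), *Rhbdl2* (0.49) and *Fxyd2* (0.48). For *Ibsp* they were *Gdpd2* (0.78), *Cdh2* (0.75), *Esm1* (0.74), *Cdh11* (0.72) and *Adipoq* (0.72), the last an adipokine that marks marrow stroma. For *Runx2* they were *Cdh11* (0.70), *Tnfrsf19* (0.67), *Ptprd* (0.67), *Cdh2* (0.67) and *Speg* (0.66). *Cdh2* and *Cdh11* encode cadherins, which join cells to each other.

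Position and sequence set some of the 10 apart. In the mouse build GRCm38 *Dmp1*, *Ibsp* and *Spp1* lie in that order on the plus strand within 238 kb, chr5:104202613-104441050, a cluster of acidic phosphoprotein genes. Over the 354 mesenchymal cells r was 0.70 for *Ibsp* with *Spp1*, 0.18 for *Dmp1* with *Ibsp* and 0.19 for *Dmp1* with *Spp1*. *Bglap* (chr3:88383501-88384464) and *Bglap2* (chr3:88377736-88378699) lie on the minus strand within 15.8 kb of each other and of *Bglap3*. The copies are so similar that 56.6% of the 50-base stretches of the *Bglap* exons and 88.2% of those of *Bglap2* also occur in another of the 3. Reads that mapped to several places were dropped by the authors, so osteocalcin counts are low by an unknown amount.

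The other genes lie apart, *Runx2* at chr17:44495987-44814797, *Sp7* at chr15:102356606-102367182, *Alpl* at chr4:137741733-137796384, *Phex* at chrX:157162075-157415312 and *Ifitm5* at chr7:140948958-140950291, all on the minus strand. Some exons overlap those of another gene. For *Runx2* it is 5.87% of the exonic bases, with the antisense gene *Runx2os1*, which matters because counting ignored the strand. On the same strand, 18.8% of those of *Spp1* overlap *Gm42793* and 29.7% of those of *Ifitm5* overlap *Gm45717*.

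The promoters were searched for the core of the *Runx2* binding motif, TGTGGT on one strand and ACCACA on the other. RefSeq promoter sequences of build GRCm38.p6 were matched for 8 of the 10 genes, with 11 start sites, and not for *Sp7* and *Bglap2*. In the 250 bases before the start the motif occurred in 4614 of all 32851 promoters (14.0%) and in 4 of the 11 windows. These were windows of *Runx2* (chr17:44814628-44814877, minus strand), *Bglap*, 1 of 2 of *Spp1* and 1 of 2 of *Dmp1* (chr5:104202367-104202616, plus strand). The windows of *Alpl*, *Ibsp*, *Phex* and *Ifitm5* did not hold these letters. A match is a description of the letters and not a binding site. The windows of *Bglap* (chr3:88384467-88384716, minus strand) and *Spp1* (chr5:104434861-104435110, plus strand) are shown because they hold the motif, at 132 and 128 bases before the start, and belong to osteocalcin and osteopontin, both secreted proteins of bone matrix. They are written in the direction of transcription, with the motif in capitals.
Bglap: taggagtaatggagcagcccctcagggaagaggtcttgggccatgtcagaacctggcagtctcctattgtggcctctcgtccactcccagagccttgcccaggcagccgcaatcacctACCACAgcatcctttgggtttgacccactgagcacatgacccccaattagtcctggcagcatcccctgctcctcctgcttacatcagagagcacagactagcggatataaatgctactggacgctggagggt
Spp1: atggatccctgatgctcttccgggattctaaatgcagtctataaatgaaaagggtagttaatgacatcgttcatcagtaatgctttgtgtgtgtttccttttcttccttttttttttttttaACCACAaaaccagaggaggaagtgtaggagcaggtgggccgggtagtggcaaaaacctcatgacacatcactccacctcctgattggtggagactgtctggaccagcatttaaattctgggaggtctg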

How the data were processed

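Plate-based single cell libraries of single cells from 6 sorted stromal populations were used. Reads had been aligned to GRCm38.p4 by GSNAP version 2015-09-29 and assigned to Ensembl 81 genes by HTSeq, with strand ignored and multiply mapped reads dropped. The authors removed poor cells and deposited counts, 1 column per cell. Symbols that occurred more than once (270 of 46078 entries) were summed. CPM were computed here from the 45771 nuclear genes. Cells were grouped by age, sorted population and ICGS cluster as the labels give them, and each group was 1 sample, so no test was run. Ratios carry a pseudocount of 1 CPM, and genes under 100 counts or in under 5 cells were left out of counts of genes past 2-fold. Doublets were not called, and marker lists were counted instead. The 10 genes and all lists were chosen with earlier results of these data known. Named genes are the 10, list genes past 4-fold or among the 3 highest of a list in young OPr, and the 5 genes most like *Bglap*, *Ibsp* and *Runx2*; *Msx2* in MSC-S and *Bmpr1b* in mOPr also met the rule, on so few counts in 1 age that no value is given. Alternatives were averaging the CPM of cells, scaling by median-of-ratios factors, thinning to 100000 counts per cell, a pseudocount of 0.1 CPM, no filter, other bars for a carried gene, each library range, identity groups and leaving out named cells. Chosen once the data had been seen was leaving out M1, M2 and hematopoietic-marked cells together, M3, and E1. The calculation of the old to young ratio was checked on simulated Poisson counts with planted 4-fold changes. Those counts had no spread between cells or mice beyond counting error. The check therefore cannot bear on ratios that rest on single cells. Gene positions and exon lengths came from GENCODE M21. Software was scipy 1.17.1, matplotlib 3.10.9, Python 3.11.15, pandas 2.3.3 and numpy 2.4.6.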

Additional observations from a re-analysis of the deposited data

Results flagged for a closer look

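The ratio of old to young *Ibsp* had opposite signs in MSC-L and mOPr, with log2 values of -1.50 and 1.71. Each sign was the same within both library ranges. Without the cells of M1 and M2 the mOPr value was 1.40, with 1 cell holding 77.5% of the young and 1 cell 73.98% of the old counts. The ratio of *Spp1* had opposite signs in MSC-S and OPr, with log2 values of -5.04 and 1.03, and the OPr value changed sign without the cells of M1 and M2. Each age of a population is 1 sample, so neither difference between populations was tested.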

How the results depend on the processing

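The median over the genes that passed at first lay under the alternatives between -0.02 and 0.70 for MSC-L, between -3.42 and 0.59 for MSC-S, between -1.50 and 0.46 for OPr and between -0.30 and 0.81 for mOPr, so its sign is not fixed in any population. The 0.59 is that of MSC-S within library range 1 over the same 6 genes, and over the 4 that pass there it was 4.76. Of the ratios of single genes with more than 3 counts under the alternative, 123 stayed within their counting interval, 185 lay outside it and 9 that were past the fold had the other sign. Within library range 1 *Ibsp* in MSC-S was 7.33 and *Bglap2* in OPr 0.75. By identity group *Bglap* in MSC-S-like cells was 0.42 and *Spp1* in OPr-like cells -0.78. *Spp1* in OPr was -1.39 without M1 and M2 and -1.06 without hematopoietic-marked cells as well. *Sp7* in mOPr was -0.41 without M1 and M2, where 1 cell held 97.3% of the old counts. *Alpl* in OPr was 0.43 without M3, with 1 cell holding 54.5% of the young and 1 cell 65.5% of the old counts. *Dmp1* in OPr was -0.14 without the highest cell of each age, which held all old counts. For the others the cause was not tested. At a bar of at least 1 count, cells with at least 3 of the genes made up 100% of young MSC-L, 52.5% of young and 49.2% of old MSC-S, 79.5% of young and 79.3% of old OPr, and 65.4% of young and 84.6% of old mOPr; at 50 CPM old MSC-S had 1.69%. No paired analysis was possible because the labels tie no cell to a mouse. Differences smaller than those between mice cannot be seen at 1 sample per age.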
